A study of Mus musculus with 8 samples.

Results

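Apod, Pcsk6, Efhd1, Adam33, Abi3bp, Angptl1, Plagl1, Aif1l and Gstm1 are 9 of the 20275 gene symbols counted in single cells of mouse colon tumors, and they were selected on their measured transcript counts, which were lower in fibroblasts of FibΔZeb1 mice than of FibCtrl mice. Their levels by genotype in fibroblasts are therefore given as a description without a test. Fibroblasts, tumor epithelial cells and immune cells had been sorted into 384-well plates from orthotopic tumors, with 1 mouse per plate, and each well was read by SORT-seq, a method that counts transcripts from their 3′ ends with molecular identifiers. All 8 mice were Zeb1 fl/fl, carried tumors grown in the cecum from colon tumor organoids, and received tamoxifen diet. The 4 FibΔZeb1 mice were positive for an inducible Cre transgene, named Col1a1Cre-ERT2 in the sample labels and Col1a2-CreERT2 in the methods of the study, and the 4 FibCtrl mice were negative for it. The Cre is driven by a collagen gene promoter that is active in fibroblasts. Values are in CPM, the transcripts of a gene scaled to the same total for every plate and class of wells, without spike-in and mitochondrial transcripts. Each transcript gives 1 count regardless of length.

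ZEB1 is a zinc-finger transcription factor of the epithelial-mesenchymal transition that binds E-box sequences of the form CACCTG and often represses genes in epithelial cells. Adventitial fibroblasts lie around vessels and in the outer layers of hollow organs, and are known for Pi16, Cd34, Dpt and Clec3b and for the production of loose connective tissue matrix. Contractile fibroblasts and myofibroblasts instead express Acta2 and Tagln and exert force on the matrix. The 9 members belong to different families: the secreted proteins Apod, Abi3bp and Angptl1, the proteases Pcsk6 and Adam33, the calcium-binding proteins Efhd1 and Aif1l, the detoxifying enzyme Gstm1, and the transcription factor Plagl1.

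Plates held 981881 to 5905188 transcripts, and 1831 of 3072 wells were kept. Clusters of wells were named from marker genes, so "fibroblast wells" are fibroblast-like clusters, and the same applies to the other classes. After removal of wells with Ptprc or Epcam transcripts, 145 fibroblast wells remained. FibCtrl plates held 45, 3, 9 and 26 of them in the order of the replicates, and FibΔZeb1 plates 24, 6, 17 and 15. FibCtrl plates 2 and 3 and FibΔZeb1 plate 2, with under 10 fibroblast wells each, were left out of the genotype comparison, and their values are given separately. FibCtrl plates 1 and 4 thus stand for all FibCtrl mice in it, and they held 49.3% of all fibroblast transcripts. The wells were split by their own transcripts into 68 matrix wells with more Dpt plus Lum than Tagln plus Acta2, 71 contractile wells with fewer, and 6 tied wells. Cluster 11 held 62 of the matrix wells, whereas clusters 14 and 15 held 29 and 38 of the contractile wells. Matrix wells were deeper, with a median of 23499 transcripts against 12285 in contractile wells.

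Promoter sequence was available for 7 members (RefSeq, GRCm38.p6), and none of their windows, from 250 bases before to 50 bases after the start site, contained CACCTG on either strand. Of all 32851 windows in the table, 20.2% contained it. Only start sites with such a window were searched. For Plagl1, Angptl1 and Pcsk6 the window began inside the gene span given below, so the outermost start of these genes was not covered. The wider E-box CANNTG, which includes CACCTG and reads the same on both strands, was present for 3 members and in 72.3% of all windows. The sequences of these 3, from 250 bases before the start site up to it, are shown because they carry the only E-box letters found among the members, which are printed in capitals. Apod had a further E-box at base 34 after the start site.
Apod, chr16:31314809-31315058, minus strand: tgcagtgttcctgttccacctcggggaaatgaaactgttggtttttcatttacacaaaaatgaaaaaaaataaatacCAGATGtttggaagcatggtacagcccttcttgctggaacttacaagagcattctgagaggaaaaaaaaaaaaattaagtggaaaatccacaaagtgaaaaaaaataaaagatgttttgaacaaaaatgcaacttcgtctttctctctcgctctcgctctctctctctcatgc
Angptl1, chr1:156838773-156839022, plus strand: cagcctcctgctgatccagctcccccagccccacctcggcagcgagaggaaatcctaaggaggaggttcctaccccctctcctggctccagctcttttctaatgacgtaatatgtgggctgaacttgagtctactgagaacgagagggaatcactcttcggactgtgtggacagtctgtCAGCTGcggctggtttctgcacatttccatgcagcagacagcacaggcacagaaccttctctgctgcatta
Plagl1, chr10:13090582-13090831, plus strand: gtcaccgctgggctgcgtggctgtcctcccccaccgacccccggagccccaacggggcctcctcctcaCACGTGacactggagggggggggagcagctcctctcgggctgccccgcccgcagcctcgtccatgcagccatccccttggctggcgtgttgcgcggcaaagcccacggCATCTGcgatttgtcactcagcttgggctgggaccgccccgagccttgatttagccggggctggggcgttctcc
A match of letters is a description and no evidence of binding. Adam33 and Abi3bp are named only.

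To see in which fibroblasts the members sit, matrix wells were compared with contractile wells on the same plates. This contrast does not use the genotype, and the 4 genes that define it are not members. All 9 members had most of their fibroblast transcripts in matrix wells, from 73.9% for Gstm1 to 98.3% for Efhd1. Matrix wells held 58.4% of all transcripts of fibroblast wells. Efhd1, a mitochondrial calcium sensor, had 228 of its 232 fibroblast transcripts there, at 113 CPM in matrix and 1.44 CPM in contractile wells. Pcsk6, a proprotein convertase that activates growth factor precursors, was at 240 against 20.2 CPM, and Aif1l, an actin-binding EF-hand protein, at 55.0 against 5.04 CPM. Abi3bp, a secreted matrix protein, was at 391 against 78.1 CPM. Plagl1, an imprinted zinc-finger transcription factor, was at 109 against 46.8 CPM and Gstm1, a glutathione S-transferase, at 239 against 119 CPM, so the split was smallest for these last 2. These pooled levels weigh plates by their depth, and 73.7% (Gstm1) to 98.6% (Adam33) of the members' fibroblast transcripts came from FibCtrl plates 1 and 4.

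In the test within plates (FibCtrl plates 1 and 4, FibΔZeb1 plates 3 and 4, which had at least 5 wells of each kind), edgeR called 5.08% of 4898 genes at an adjusted p below 0.05, and 3.43% as higher in matrix wells. Only 4 members passed the filter on low counts, a filter that keeps genes high in either kind of well. Pcsk6 was 3.88 log2 units higher in matrix wells (SE 0.49, edgeR adjusted p = 0.00021). Abi3bp was 1.66 higher (SE 0.50, edgeR adjusted p = 0.076) and Plagl1 1.64 higher (SE 0.50, edgeR adjusted p = 0.080), which missed the threshold. Gstm1 did not differ detectably (log2 difference 0.51, SE 0.39, edgeR adjusted p = 0.64). Without the filter, 2.22% of 14868 genes were called as higher in matrix wells. Of the 4 members above, Pcsk6, Abi3bp and Plagl1 then passed and Gstm1 did not. The other 5 are not counted there, because they had failed the filter and came mostly from FibCtrl plates 1 and 4. On the FibCtrl plates alone, an alternative chosen after seeing the data, 2.83% of 6714 genes were called as higher in matrix wells. There the log2 difference was 4.02 for Pcsk6, 2.03 for Abi3bp, 1.39 for Plagl1 and 1.14 for Gstm1. The members were selected to be high on these plates, so no test is given for them there. The other 5 members entered that fit only through the FibCtrl plates and are left out here. Pcsk6 and Plagl1 failed the filter without FibCtrl plate 1 and on the FibΔZeb1 plates alone. Both thus entered the test through the FibCtrl plates, on which they were selected to be high. Their p-values above are therefore no independent support. Abi3bp was 0.94 higher on the FibΔZeb1 plates alone and did not pass (edgeR adjusted p = 0.51). Pcsk6 also failed the filter with Ptprc or Epcam wells kept and with clusters in place of the 4 genes. Its call thus depends on FibCtrl plate 1 and on how wells were kept and split.

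**Figure D1:**
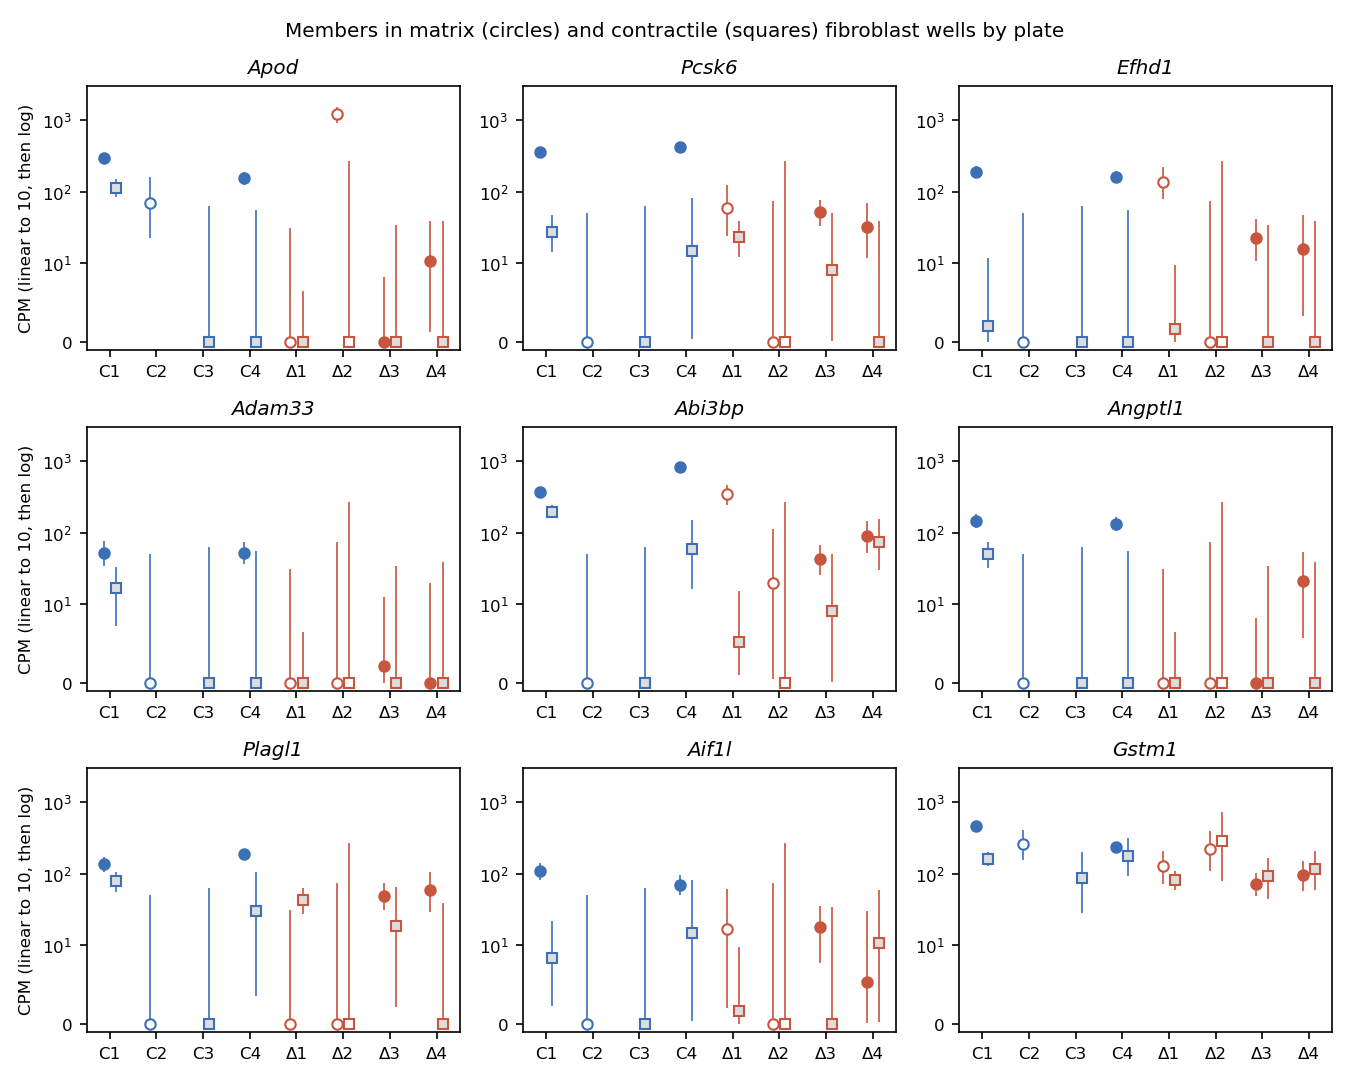
Level of each member in CPM (vertical axis, linear to 10 and logarithmic above) on FibCtrl plates C1 to C4 (blue) and FibΔZeb1 plates Δ1 to Δ4 (red), in matrix wells (circles) and contractile wells (grey squares), with exact Poisson 95% intervals for counting error. Filled circles mark plates with at least 5 matrix wells and open symbols plates with fewer wells of that kind; C1 and C4 are the highest filled circles for all 9 members, while the open Apod circle at Δ2 comes from 1 well.

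Zeb1, the targeted gene, was at 93.3 and 83.4 CPM in fibroblast wells of FibCtrl plates 1 and 4 and at 43.7, 48.0 and 28.3 CPM on FibΔZeb1 plates 1, 3 and 4. On these plates the groups did not overlap, although transcripts remained on each FibΔZeb1 plate, and the difference did not pass in the fit over all genes (log2 difference -1.15, SE 0.29, edgeR adjusted p = 0.44). Of the plates left out for few wells, FibCtrl plates 2 and 3 had no Zeb1 transcript, which allows up to 46.2 and 50.4 CPM (exact Poisson 95% intervals), and FibΔZeb1 plate 2 was at 44.0 CPM from 3 transcripts, so these plates did not share the difference. Reads from the 3′ end need not lie in the deleted part, so they do not check the deletion.

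For the genotype contrast in fibroblast wells the background was narrow. edgeR called 0.0123% of 8158 genes, the single one being Aldh1a2, a retinoic acid synthesis enzyme. Before adjustment 480 genes had a p below 0.05, and DESeq2 called 38. Over all genes with at least as many transcripts on these plates as the scarcest member, 9.21% had both FibCtrl plates above all 3 FibΔZeb1 plates. All 9 members passed the filter and had this order, which is what they were selected for. In matrix wells 17.9% of genes had both FibCtrl plates above both FibΔZeb1 plates with at least 5 such wells, and so did all 9 members. Matrix wells are part of the wells used for the selection and held most fibroblast transcripts of each member. Their order there thus follows from the selection and adds no support. In contractile wells 2.16% of genes had the 3 FibCtrl plates above the 3 FibΔZeb1 plates, and none of the members did. Each of these shares counts genes down to the level of the scarcest member in that kind of well.

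Among the secreted proteins, Apod, a lipocalin that carries small lipids (GRCm38, chr16:31296192-31314808, minus strand), was at 236 and 138 CPM in fibroblast wells of FibCtrl plates 1 and 4. On FibΔZeb1 plates 1, 3 and 4 it was at 0, 0 and 7.06 CPM, the last from 2 transcripts. Nearly all Apod of the compared plates thus came from FibCtrl mice, with 74 of the 238 transcripts of FibCtrl plate 1 in 1 matrix well. In matrix wells the levels were 293 and 153 CPM on FibCtrl plates 1 and 4 against 0 and 10.6 CPM on FibΔZeb1 plates 3 and 4. The 0 on FibΔZeb1 plate 3 allows up to 8.24 CPM (exact Poisson 95% interval), an interval that does not cover the clumping of transcripts in single wells. A further 33 transcripts sat in the tied wells, where Apod reached 692 CPM.

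Abi3bp (chr16:56477878-56690135, plus strand) was the most abundant member in fibroblast wells, with 901 transcripts. It was at 284 and 758 CPM on FibCtrl plates 1 and 4, against 62.8, 35.5 and 84.8 CPM on FibΔZeb1 plates 1, 3 and 4. The mean was 521 ± 336 CPM (SD, n = 2) in FibCtrl and 61.0 ± 24.7 CPM (SD, n = 3) in FibΔZeb1, an 8.53-fold difference. Although the groups did not overlap, the FibCtrl plates differed from each other by more than the FibΔZeb1 plates did. In matrix wells Abi3bp was at 367 and 834 CPM against 42.5 and 90.1 CPM. On FibΔZeb1 plate 4 its contractile wells, at 74.3 CPM, were close to its matrix wells.

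Angptl1 (chr1:156838562-156861078, plus strand), a secreted angiopoietin-like glycoprotein, was at 99.3 and 120 CPM on the FibCtrl plates and at 0, 0 and 14.1 CPM on the FibΔZeb1 plates. In matrix wells it was at 146 and 133 CPM against 0 and 21.2 CPM, the last from 4 transcripts in 2 wells. Angptl1 was unevenly spread between cells: on FibCtrl plate 4 its 83 matrix-well transcripts sat in 4 of 21 wells, 38 of them in 1 well, whereas on FibCtrl plate 1 it was found in 11 of 22 matrix wells.

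Of the proteases, Pcsk6 (chr7:65861734-66050386, plus strand) was at 197 and 379 CPM in FibCtrl fibroblast wells and at 29.1, 42.7 and 21.2 CPM in FibΔZeb1 fibroblast wells. The mean was 288 ± 129 CPM (SD, n = 2) against 31.0 ± 10.8 CPM (SD, n = 3). In matrix wells it was at 360 and 419 CPM against 51.4 and 31.8 CPM, a 9.36-fold difference. Pcsk6 was seen in 16 of 22 and 19 of 21 matrix wells of the FibCtrl plates, and in 6 of 8 and 3 of 9 of the FibΔZeb1 plates, so transcripts remained in FibΔZeb1 cells at lower numbers.

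Adam33 (chr2:131050591-131063814, minus strand), a membrane-anchored metalloprotease, was the scarcest member with 70 fibroblast transcripts. It was at 35.7 and 47.5 CPM on the FibCtrl plates and at 0, 1.78 and 0 CPM on the FibΔZeb1 plates, where 1 transcript was counted in all. In matrix wells both FibCtrl plates gave nearly the same level, 52.4 and 52.6 CPM, from 27 and 33 transcripts. FibΔZeb1 plates 3 and 4 gave 2.23 and 0 CPM, the 0 allowing up to 19.6 CPM (exact Poisson 95% interval). No ratio is given for Apod, Adam33 or Angptl1, because the FibΔZeb1 side holds at most 4 transcripts.

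Among the calcium-binding proteins, Efhd1 (chr1:87264363-87310839, plus strand) was at 100.3 and 146 CPM in FibCtrl fibroblast wells against 24.8, 17.8 and 10.6 CPM in FibΔZeb1 fibroblast wells. In matrix wells it was at 190 and 161 CPM against 22.3 and 15.9 CPM, a 9.20-fold difference. Aif1l (chr2:31950139-31973442, plus strand) was at 59.6 and 64.7 CPM against 4.36, 14.2 and 7.06 CPM in all fibroblast wells. In matrix wells it was at 109 and 70.1 CPM against 17.9 and 5.30 CPM. Both genes were high on both FibCtrl plates and separated from the FibΔZeb1 plates, but FibΔZeb1 Aif1l rests on 8 matrix-well transcripts on plate 3 and 1 on plate 4.

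Gstm1 (chr3:108012255-108017973, minus strand), which conjugates glutathione to electrophiles, was at 319 and 232 CPM in FibCtrl fibroblast wells against 88.8, 74.6 and 102 CPM in FibΔZeb1 fibroblast wells, or 275 ± 61.5 CPM (SD, n = 2) against 88.6 ± 13.9 CPM (SD, n = 3), a 3.11-fold difference. In matrix wells it was at 464 and 238 CPM against 71.5 and 95.4 CPM. Gstm1 was present in the contractile wells of all 6 plates compared, at 86.5 to 178 CPM on FibCtrl plates 1, 3 and 4 and 80.8 to 117 CPM on FibΔZeb1 plates 1, 3 and 4, ranges that overlapped. On FibΔZeb1 plates 3 and 4 its matrix wells were below its contractile wells (91.3 and 117 CPM), while on FibCtrl plates 1 and 4 they were above, with counting intervals that overlapped on all of these plates except FibCtrl plate 1. The other mu-class genes shared at most 67% of their last 300 transcript bases with Gstm1 (Gstm3), so they are not near-identical copies over that stretch.

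Plagl1 (chr10:13060504-13131694, plus strand) was at 110 and 170 CPM in FibCtrl fibroblast wells against 34.9, 42.7 and 38.9 CPM in FibΔZeb1 fibroblast wells, a 3.61-fold difference. In matrix wells it was at 136 and 185 CPM against 49.2 and 58.3 CPM, the smallest fold difference of the 9 members at 2.99. Plagl1 was concentrated in few FibΔZeb1 cells: 14 of the 22 transcripts on plate 3 and 10 of the 11 on plate 4 came from 1 well each.

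**Figure D2:**
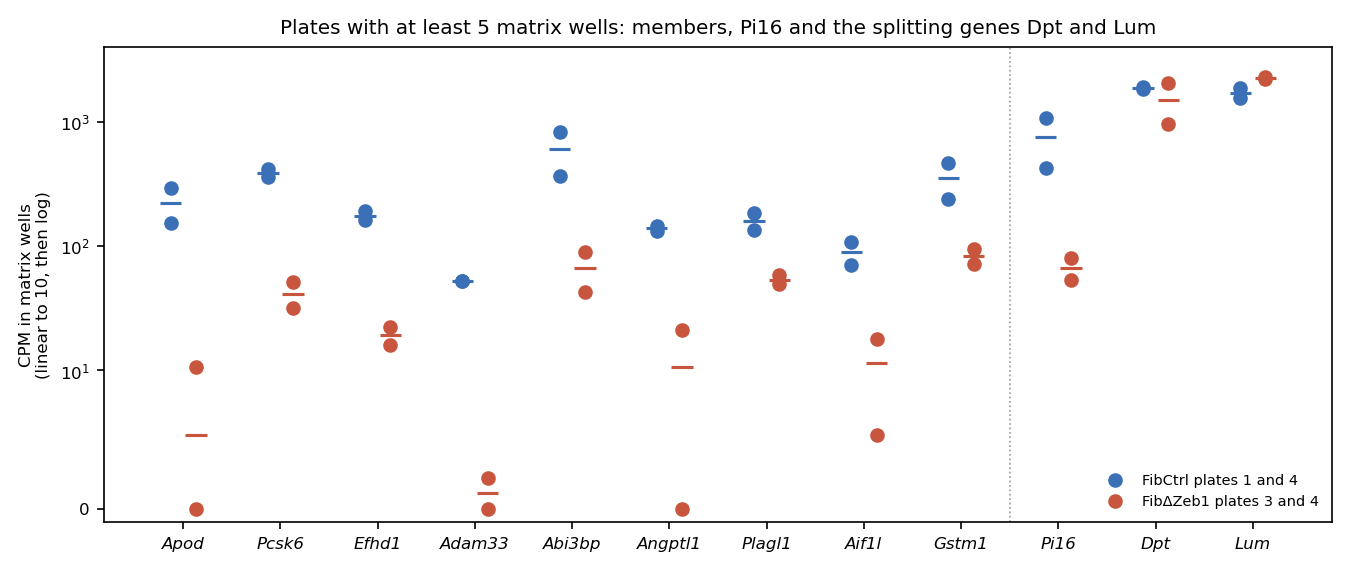
Level in matrix wells in CPM (vertical axis, linear to 10 and logarithmic above) of the 9 members, of the adventitial marker Pi16, and of Dpt and Lum, which define matrix wells, on FibCtrl plates 1 and 4 (blue) and FibΔZeb1 plates 3 and 4 (red), with group means as bars. Each member and Pi16 are higher on both FibCtrl plates, whereas Dpt overlaps and Lum is higher on the FibΔZeb1 plates (2214 and 2310 against 1884 and 1559 CPM).

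Summed over the 9 members, fibroblast wells held 1441 and 2055 CPM on FibCtrl plates 1 and 4 and 245, 229 and 286 CPM on FibΔZeb1 plates 1, 3 and 4, a log2 difference of -2.79. It was -1.34 with a minimum of 5 wells per plate and -1.05 with every plate kept. The sum was lower in FibΔZeb1 on both flow cells. On the first flow cell FibCtrl plate 1 stood against FibΔZeb1 plate 1, and on the second FibCtrl plate 4 stood against FibΔZeb1 plates 3 and 4. In matrix wells the sums were 2117 and 2245 CPM against 257 and 329 CPM, a log2 difference of -2.90, which became -1.21 with every plate that had a matrix well. This comparison holds both genotypes on the second flow cell alone, with FibCtrl plate 4 against FibΔZeb1 plates 3 and 4.

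Because the members sit in matrix wells, the share of such wells on each plate bears on the sum. Matrix wells made up 51.2% and 80.8% of the matrix and contractile wells of FibCtrl plates 1 and 4 and 12.5%, 50.0% and 60.0% of those of FibΔZeb1 plates 1, 3 and 4. The mean share was 66.0% against 40.8%, with p = 0.4 in an exact two-sided permutation test over plates, a test that 2 against 3 plates cannot pass because its smallest p is 0.2. The direction of this difference depended on the plates and classes: it was -25.1 percentage points here, -0.22 without the mitochondrial filter, 1.65 with a minimum of 5 wells per plate and 2.93 with classes from marker sums. The part of the share in the member sum was not tested. When matrix and contractile wells were weighted equally on each plate, Apod was at 203 and 76.6 CPM on FibCtrl plates 1 and 4 and at 0 and 5.30 CPM on FibΔZeb1 plates 3 and 4. Gstm1 was at 313 and 208 CPM against 81.4 and 106 CPM under this weighting.

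**Figure D3:**
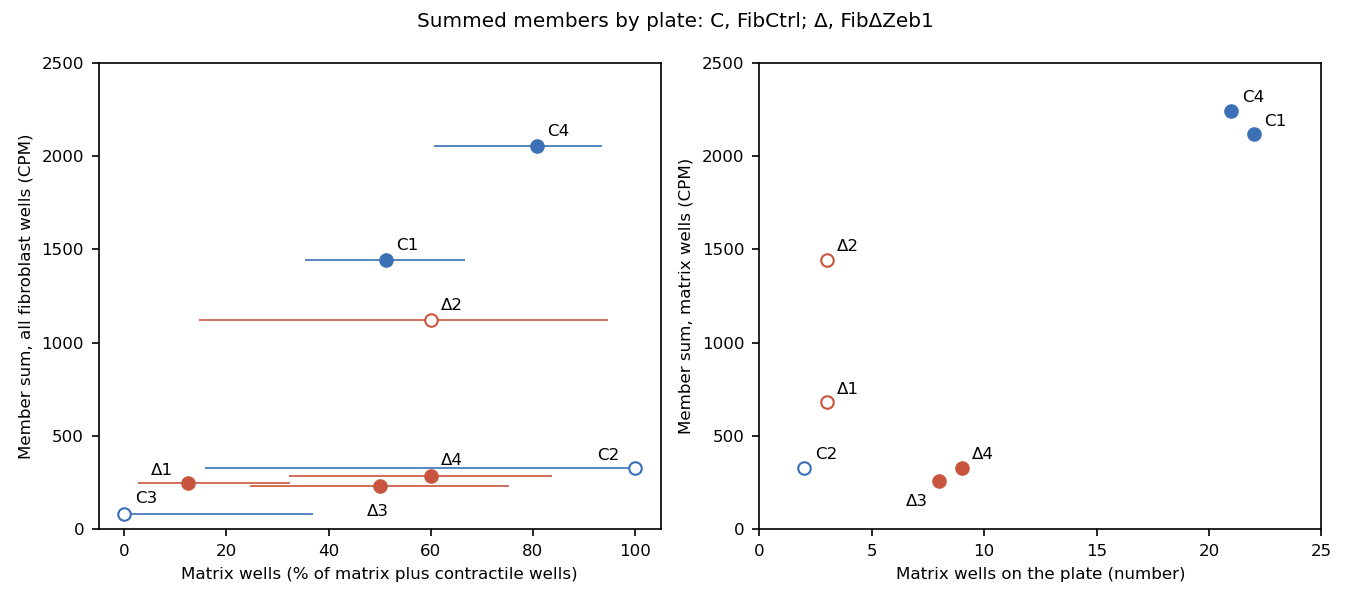
Summed level of the 9 members in CPM in all fibroblast wells against the percentage of matrix wells with exact 95% binomial intervals (left), and in matrix wells against their number (right), for FibCtrl plates C1 to C4 (blue) and FibΔZeb1 plates Δ1 to Δ4 (red). Open symbols are plates with under 10 fibroblast wells (left) or under 5 matrix wells (right). On the left, Δ3 and Δ4 (50.0% and 60.0% matrix wells) lie at 229 and 286 CPM and C1 (51.2%) at 1441 CPM. The open symbols C2 (100%), C3 (0%) and Δ2 (60.0%) lie at 326, 82.1 and 1120 CPM. The part of the share in the sum was not tested.

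The plates with few fibroblast wells did not follow the contrast. FibCtrl plate 2, with 3 fibroblast wells, had a member sum of 326 CPM, within which Gstm1 was at 251 CPM, Apod at 62.6 CPM, Pcsk6 at 12.5 CPM and the other 6 members at 0. FibCtrl plate 3, with 9 fibroblast wells of which none was a matrix well, had 82.1 CPM, made of Gstm1 at 68.4 CPM and Plagl1 at 13.7 CPM. Thus both of these FibCtrl plates lay near or under the FibΔZeb1 plates. FibΔZeb1 plate 2, with 6 fibroblast wells, had 1120 CPM, of which Apod made up 886 CPM. All 60 of its Apod transcripts came from 1 matrix well. The 3 matrix wells of FibΔZeb1 plate 1 also held single cells with members: 16 Efhd1 transcripts in 1 well gave 136 CPM, and 36 of 40 Abi3bp transcripts in 1 well gave 341 CPM, while Apod, Adam33, Angptl1 and Plagl1 were at 0 in all 3.

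In the wells themselves, several members were usually found together on the FibCtrl plates. The median number of members with a transcript per matrix well was 6 on FibCtrl plate 1 and 7 on FibCtrl plate 4, against 2.5 and 2 on FibΔZeb1 plates 3 and 4. At least 5 members were found in 15 of 22 and 18 of 21 matrix wells of the FibCtrl plates, and in 3 of 8 and 1 of 9 of the FibΔZeb1 plates. After thinning each well to 5000 transcripts, Pcsk6 was detected in 58.2% of 44 FibCtrl and 18.7% of 23 FibΔZeb1 matrix wells (77.8% and 47.8% before thinning), Abi3bp in 72.5% and 33.5% (84.4% and 56.5%), and Apod in 40.6% and 7.52% (75.6% and 13.0%). In T cells, which should lack these genes, the thinned share over 34 wells was 6.78% for Pcsk6, 4.50% for Abi3bp and 2.37% for Apod. The FibΔZeb1 shares lay above this level, but they were taken over all plates. For Apod the share rests on 1 well of plate 2 with 60 transcripts and 2 wells of plate 4 with 1 transcript each. Median depth was 23823 transcripts in FibCtrl matrix wells, 23175 in FibΔZeb1 matrix wells and 3220 in T cells. Gstm1 was detected in 72.6% and 44.2% after thinning, but also in 40.6% of T cells. Pooled over plates, FibCtrl matrix wells had similar member sums with a Zeb1 transcript (2103 CPM, 31 wells) and without (1944 CPM, 14 wells). In FibΔZeb1 matrix wells the sums were 285 CPM (11 wells) and 588 CPM (12 wells). Wells with a Zeb1 transcript were deeper, at a median of 31485 against 9378 transcripts in FibCtrl and 26630 against 22004 in FibΔZeb1.

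Other genes of adventitial fibroblasts were counted from a list of 25. In the comparison of matrix with contractile wells, 17 of the 20 that could be tested rose in matrix wells and none fell, with a median log2 difference of 2.93 against 0.01 over all genes. Of the 5 with the most fibroblast transcripts, Dcn, a collagen-binding proteoglycan, rose by 3.01, Gsn, an actin-severing protein, by 1.72, and Ly6a, a surface marker of progenitor-like fibroblasts, by 3.60. Mfap5 and Fbln2, proteins of elastic fibers, were not called. Of the contractile list 8 of 14 genes were tested, and Myl9 (log2 -2.63), a myosin light chain, and Tpm2 (-1.38), a tropomyosin, fell, with a median of -1.29 over the 8.

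By genotype in fibroblast wells, none of the 24 adventitial genes tested passed in edgeR, 9 had an unadjusted p below 0.05, and 22 had a log2 difference below 0. DESeq2 called 3 of them as lower, Pi16, Ly6c1 and Sema3c, and edgeR without the filter called 11 as lower. Over all genes, DESeq2 called 23 of 8158 as lower and 15 as higher, and edgeR without the filter called 173 of 15198 as lower. The list was written with earlier results of these data known, so these counts are no independent support. The median log2 difference of the list was -1.02 against -0.0027 over all genes. Pi16, a marker of adventitial cells, was at 426 and 1083 CPM in matrix wells of FibCtrl plates 1 and 4 and 80.5 and 53.0 CPM on FibΔZeb1 plates 3 and 4. In matrix wells 14 of the 24 genes were lower on both FibΔZeb1 plates, 2 were higher (Lum and Fbln2), and 8 overlapped, beside the background of 17.9%. None of the 10 contractile genes tested passed in edgeR, 1 had an unadjusted p below 0.05 (Actg2, an enteric actin, which DESeq2 called as higher), and their median was 0.48. Of the transcription factors of gut mesenchyme 4 were tested and all had a log2 difference above 0, with a median of 1.28. Nkx2-3, a homeobox gene of the intestinal wall, had the largest value, 3.55 (SE 0.63, edgeR adjusted p = 0.20), and was called as higher by DESeq2.

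Families of the members were counted in the same fits, and no other gene of a family passed between genotypes in fibroblast wells, by edgeR or by DESeq2 with the filter. Without it edgeR called Rbp4, Cdkn1c, Dlk1 and Igf2 as lower. At an unadjusted p below 0.05 in edgeR were 1 lipocalin (Rbp4), 1 angiopoietin-like gene (Angptl2), 1 imprinted gene (Cdkn1c) and 2 elastic fiber genes (Emilin1 and Ltbp4). The count covers 3 lipocalins and apolipoproteins, 4 proprotein convertases, 4 mitochondrial calcium proteins, 7 ADAM proteases, 3 angiopoietin-like genes, 7 imprinted genes, 8 glutathione transferases and 6 elastic fiber genes. Between kinds of well, Cdkn1c (log2 2.11, edgeR adjusted p = 0.033), an imprinted inhibitor of the cell cycle, Mgst1 (1.67, edgeR adjusted p = 0.027), a microsomal glutathione transferase, and Fbn1 (1.51, edgeR adjusted p = 0.014), the fibrillin of elastic fibers, rose in matrix wells.

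Markers of other cells were summed in the fibroblast wells of the compared plates. Gut mesenchyme transcription factors, with Barx1 at 0 throughout, were at 37.4 to 96.2 CPM in FibCtrl and 138 to 218 CPM in FibΔZeb1, without overlap. The adventitial list was at 25450 to 28040 CPM against 9124 to 20660 CPM, also without overlap. Mesothelial markers (8 genes, Bnc1 at 0 on every plate) were at 121 to 151 against 147 to 344 CPM, epithelial markers (9 genes) at 131 to 186 against 114 to 159 CPM, and pericyte markers (8 genes) at 289 to 643 against 255 to 1174 CPM, which all overlapped. Endothelial markers (7 genes) stayed at or under 14.6 CPM, with Cdh5 at 0 on every plate. The gut mesenchyme and adventitial lists thus separated the 2 FibCtrl plates from the 3 FibΔZeb1 plates. Of genes at least as abundant as the scarcest member, 9.21% had FibCtrl plates above all 3 FibΔZeb1 plates, as the adventitial list did. The share of genes in the reverse order, that of the gut mesenchyme list, was not counted. In matrix wells 3 gut mesenchyme genes were higher on both FibΔZeb1 plates, 1 was lower and 3 overlapped. The adventitial list was lowest, at 9124 CPM, on FibΔZeb1 plate 1, where matrix wells made up 12.5% of both kinds. The part of the matrix share in these lists, and of the lists in the member levels, was not tested.

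The members differed widely in where they sat outside fibroblasts. Of all their transcripts, Angptl1 had 81.7%, Abi3bp 76.7% and Efhd1 75.8% in fibroblast wells. In contrast, Gstm1 had 74.5% of 6362, Aif1l 65.3% of 484, Pcsk6 54.0% of 1522 and Plagl1 51.1% of 889 transcripts in epithelial wells. Pooled over plates, matrix fibroblasts were still higher in CPM for all but Gstm1. Epithelial wells were at 59.3 CPM for Pcsk6, 32.8 CPM for Plagl1, 22.8 CPM for Aif1l and 17.1 CPM for Apod. On FibΔZeb1 plates 3 and 4, matrix wells were below these pooled levels for Pcsk6 (51.4 and 31.8 CPM) and Aif1l (17.9 and 5.30 CPM). The same held for Apod (0 and 10.6 CPM), but not for Plagl1 (49.2 and 58.3 CPM). Epithelial wells of FibΔZeb1 plates 3 and 4 themselves were at 50.4 and 55.4 CPM for Pcsk6 and 24 and 4.85 CPM for Apod. Against these, matrix wells were not lower for Pcsk6 on plate 3 or for Apod on plate 4. Gstm1 reached 342 CPM in epithelial wells against 239 CPM in matrix wells, and 57.9 to 148 CPM in macrophage, neutrophil, T, B and mast cell wells. The epithelial plates ranged from 210 to 586 CPM for Gstm1, which spans the fibroblast value, so the order of these 2 classes is not larger than the spread between plates. Efhd1, Adam33, Abi3bp and Angptl1 were at 1.66 CPM or lower in epithelial wells.

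A cluster that did not meet the naming rule, cluster 18 (34 wells, led by Timp3, Clu and C3), also held members. Its best match was the mesothelial list, of which 8 markers were detected. Abi3bp was at 54.6 CPM, Pcsk6 at 17.8 CPM and Adam33 at 16.8 CPM there, whereas Apod, Efhd1 and Angptl1 had no transcript, which allows up to 3.87 CPM (exact Poisson 95% interval). Of its wells, 15 were on FibCtrl plate 3 and 9 on FibΔZeb1 plate 4. Gstm1 was at 87.1 CPM, Aif1l at 12.6 CPM and Plagl1 at 11.5 CPM there. The Pcsk6 level was under those of neutrophil (31.1 CPM) and B cell wells (28.2 CPM).

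**Figure D4:**
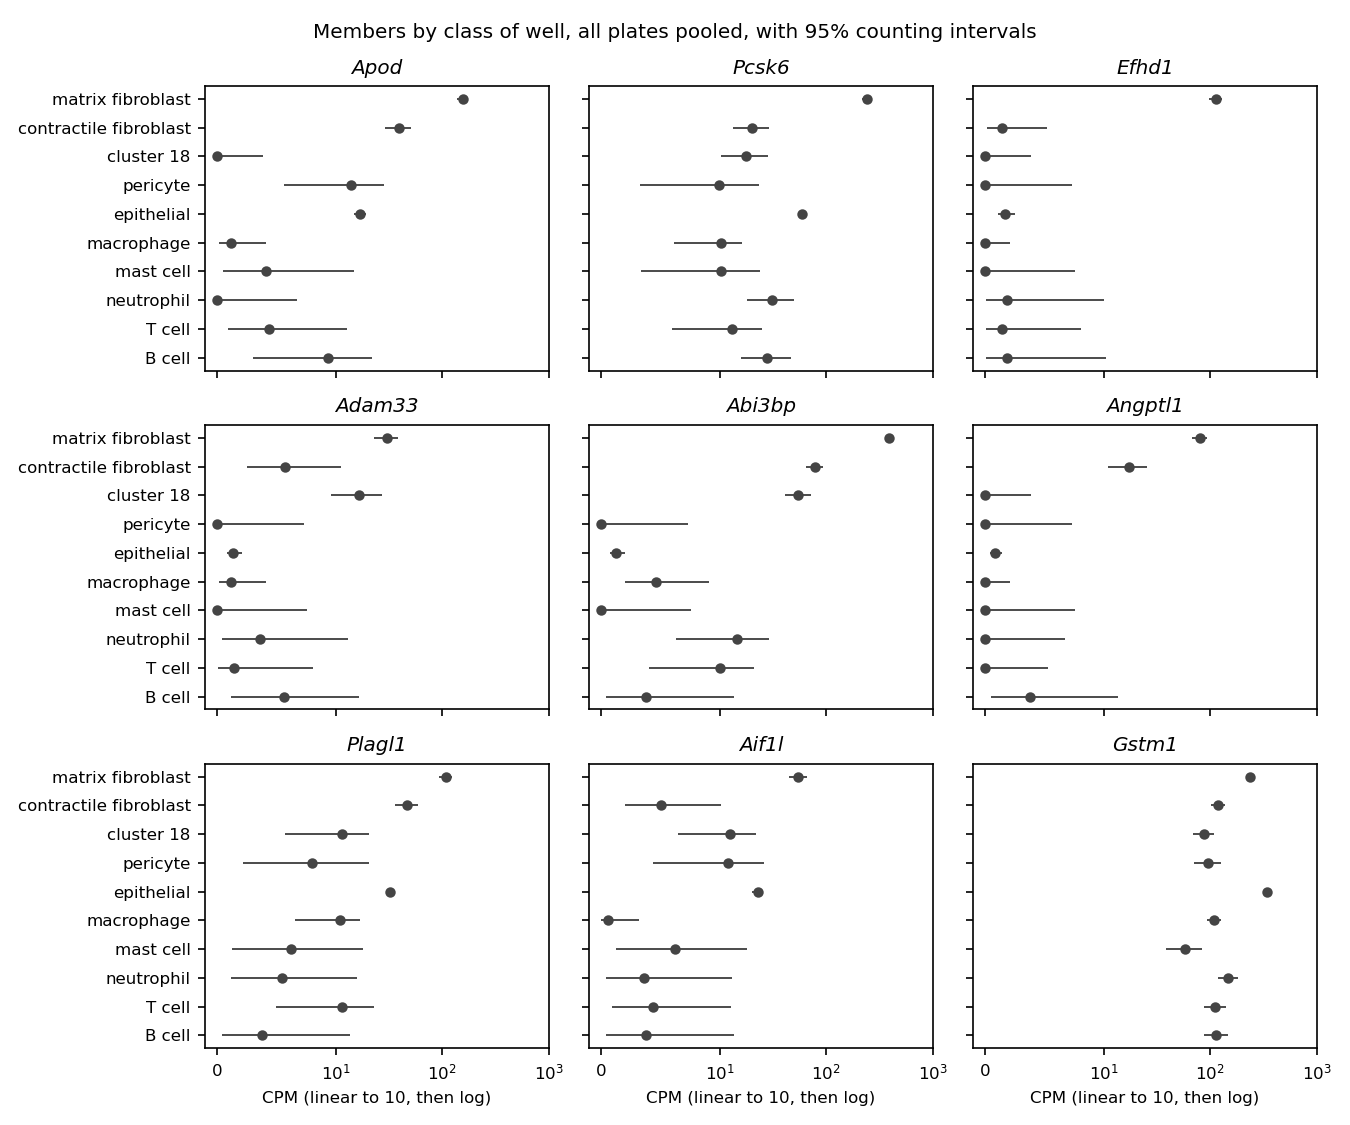
Level of each member in CPM (horizontal axis, linear to 10 and logarithmic above) in 10 classes of wells pooled over all plates, with exact Poisson 95% intervals for counting error. Matrix fibroblast wells are the highest class for every member except Gstm1, for which epithelial wells lie at 342 CPM.

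The genotype contrast outside fibroblasts was tested, since the members were not selected there. In epithelial wells 0% of 10401 genes were called by edgeR, where 198 had a p below 0.05 before adjustment, and DESeq2 called 1. In immune wells 0% of 6842 genes were called by edgeR, where 175 had a p below 0.05 before adjustment, and DESeq2 called none. Of the members 5 passed the epithelial filter, and 4 of these had a log2 difference below 0, none past the adjusted threshold. Gstm1 was at 586, 251, 330 and 360 CPM in the FibCtrl mice, in the order of the replicates, and at 210, 225, 268 and 276 CPM in the FibΔZeb1 mice, which overlap (log2 difference -0.66, SE 0.25, edgeR adjusted p = 0.9997). Plagl1 was at 47.1, 10.3, 84.0 and 41.1 CPM against 36.2, 14.9, 6.29 and 18 CPM (log2 difference -1.28, SE 0.61, edgeR adjusted p = 0.9997). Pcsk6, in contrast to its level in fibroblasts, was at 33.5 to 100.3 CPM on FibCtrl and 50.4 to 65.9 CPM on FibΔZeb1 plates (log2 difference -0.18, SE 0.31). Apod (log2 difference -0.81, SE 0.64) and Aif1l (0.82, SE 0.93) varied strongly between plates, with Aif1l from 2.08 to 64.6 CPM among FibΔZeb1 plates alone. In immune wells only Gstm1 passed the filter, with a log2 difference of 0.03 (SE 0.32, edgeR adjusted p = 0.9995). Whether the genotype difference depends on the class of well was not tested.

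The genes most like the members across the 145 fibroblast wells, by the correlation of each gene with the mean of the members after centring on the plate, were Clec3b (r = 0.69), Pamr1 (0.68), Cd34 (0.66), Dpt, Tnxb, C1ra, Sema3c and Ogn (0.65 each), Scara5 (0.64) and Tmem100 (0.63), of 2950 genes compared. Of these 10, 6 stood in the adventitial list. Wells share their plate and vary in depth, so these values are a description. Among the members, Abi3bp (r = 0.57), Pcsk6 (0.56) and Efhd1 (0.54) followed the mean of the others most closely, and Plagl1 (0.31) and Angptl1 (0.23) least. The nearest genes did not all share the genotype pattern. In matrix wells Pamr1 was at 241 and 318 CPM on FibCtrl plates 1 and 4 and 64.8 and 58.3 CPM on FibΔZeb1 plates 3 and 4. Clec3b, a plasminogen-binding lectin, was at 307 and 441 against 145 and 377 CPM, and Scara5, a ferritin receptor, at 326 and 201 against 240 and 90.1 CPM, which overlapped.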

How the data were processed

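SORT-seq libraries (CEL-Seq2 chemistry) of 8 plates, 1 mouse each, were analysed. The deposited tables hold estimated counts: per the methods of the study, the provider mapped reads with bwa to the GRCm38 transcriptome, and the values are transcripts counted for each gene in each well. Of the values above 0, 86.3% were exactly whole, and 99.0% came within 0.01 of a whole number when a correction for collisions between 4096 molecular identifiers was undone, so the values were taken as identifier counts with that correction. The submitters' processing notes also name Cell Ranger 2.1.1. Counts were summed over wells and then rounded. Totals exclude spike-in (ERCC) and mitochondrial rows. The genotype of the organoids is not reported here.

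Wells with at least 500 transcripts and a mitochondrial share within 3 median absolute deviations were kept. They were clustered (2000 variable genes, 20 components, Leiden resolution 1) and the clusters named from marker lists. The rule for naming a cluster was set after the data had been seen. Fibroblast wells with at least 2 transcripts of Ptprc or Epcam were removed and no doublet caller was run. Sorting gates were not used here. The members and the gene lists were chosen with earlier results of these data known. All members are named, and from the lists the called genes or the 5 with the most fibroblast transcripts. The part of this rule that names the nearest paralog by protein was not applied. The promoter table matched 7 members.

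Sums per plate were tested with edgeR 4.0.16 (quasi-likelihood, TMM, filterByExpr, Benjamini-Hochberg over all genes tested, R 4.3.3), and DESeq2 1.42.0 was an alternative. Plates needed at least 10 wells of a class, or 5 wells of each kind for matrix against contractile wells with plate as a term. Log2 differences are FibΔZeb1 minus FibCtrl or matrix minus contractile. The scripts were tested on simulated data. Poisson and binomial intervals (95%) cover counting error only. In epithelial wells, deviations of plates with the same replicate number correlated at 0.535, 0.259, 0.14 and 0.11. Correlations between plates with different numbers were not computed, so these values cannot tell whether the numbers pair the plates. The fit with the replicate number as a block changed no epithelial call. In immune wells the correlations were 0.088 to 0.196, and in fibroblast wells only 2 pairs had enough wells (0.301 and 0.175). Nothing in the labels ties the numbers to a litter or day, although replicates 1 and 2 shared a flow cell, as did replicates 3 and 4.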

Additional observations from a re-analysis of the deposited data

Results flagged for a closer look

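Among plates with at least 5 wells of each kind, the log2 ratio of Gstm1 of matrix over contractile wells (with 10 CPM added to each) was 1.47 and 0.40 on FibCtrl plates 1 and 4 (mean 0.93) and -0.31 and -0.26 on FibΔZeb1 plates 3 and 4 (mean -0.29). On these 4 plates the ratio was above 0 in FibCtrl and below 0 in FibΔZeb1. The matrix and contractile intervals overlapped on FibCtrl plate 4 and FibΔZeb1 plates 3 and 4, and FibΔZeb1 plate 1, with 3 matrix wells, went the other way (128 CPM in matrix and 80.8 CPM in contractile wells). The difference between the genotypes was not tested.

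Apod was at 886 CPM in the fibroblast wells of FibΔZeb1 plate 2, which was left out of the comparisons for its 6 fibroblast wells. The highest FibCtrl plate was at 236 CPM. All 60 transcripts were in 1 well, and without it the plate was at 0.

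None of the 15 groups of plates that were examined held a plate far from the others.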

How the results depend on the processing

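The log2 difference of the member sum in fibroblast wells (-2.79) kept its direction throughout. It was -1.34 with a minimum of 5 wells per plate, -1.05 with every plate kept (chosen after seeing the data), -2.22 without the mitochondrial filter, -2.08 with classes from marker sums, and -3.02 to -2.51 leaving out 1 plate. In matrix wells (-2.90) it was -1.21 with a minimum of 1 matrix well (chosen after seeing the data), -2.60 as a mean of wells, and -3.09 to -2.73 leaving out 1 plate. The difference in the share of matrix wells (-25.1 percentage points) turned to 1.65 with a minimum of 5 wells and to 2.93 with classes from marker sums, and lay between -39.9 and -10.3 leaving out 1 plate.

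Genes called between genotypes in fibroblast wells (1) numbered 38 with DESeq2, 327 without the filter, 26 with the flow cell as a term, 0 with Ptprc or Epcam wells kept or classes from marker sums, and 0 to 6 leaving out 1 plate (6 without FibCtrl plate 1, 4 without FibCtrl plate 4, 0 without any one FibΔZeb1 plate). With the replicate number as a block there were 78 calls, although only 2 pairs existed there. The block changed no other call. DESeq2 called 1 gene in epithelial wells. Between matrix and contractile wells (249) there were 487 calls without the filter, 408 with clusters in place of the 4 genes, and 88 (without FibCtrl plate 1) to 278 leaving out 1 plate. The split by summed lists was not run, as only 1 plate had 5 wells of each kind.

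Single members that turned direction had not passed a test. In epithelial wells these were Pcsk6 (0.11 without FibCtrl plate 2, range -0.41 to 0.11 leaving out 1 plate) and Aif1l (-0.11 without FibΔZeb1 plate 3, range -0.11 to 1.64). In immune wells Gstm1 (range -0.10 to 0.31) turned to -0.07, -0.02 and -0.03 without FibCtrl plates 2, 3 and 4 and to -0.01 and -0.10 without FibΔZeb1 plates 2 and 3. Between kinds of well Gstm1 was at -0.27 on FibΔZeb1 plates alone. The causes were not tested. The comparison rests on 2 FibCtrl mice.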
